A study of Solanum lycopersicum with 6 samples.

Results

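The genes described here make carotenoids in tomato (Solanum lycopersicum), together with CHRDi. They were found by symbol or synonym in RefSeq, as PSY1, PSY2, PDS, ZDS, CRTISO, CYC-B, CrtR-b1, CrtR-b2, ZEP and CHRDi, and all 10 names matched a gene. Array probes listed under a RefSeq transcript of these genes numbered 22 of the 43603 distinct non-control probes, and they belonged to 8 of the 1191 RefSeq genes with a probe. CRTISO and ZEP had no matched probe and are not analysed here. Psy1 had 8 probes, PSY2 had 4, PDS had 3, ZDS and NSY had 2 each, and CrtR-b1, CrtR-b2 and CHRDi had 1 each. NSY is the RefSeq symbol of the gene that carries the synonym Cyc-B.

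Carotenoids are plastid pigments that protect the photosynthetic apparatus of leaves and colour ripe tomato fruit. Phytoene synthase makes phytoene, the first carotenoid, and phytoene desaturase (PDS), zeta-carotene desaturase (ZDS) and their isomerases turn it into lycopene. Lycopene cyclases close the rings, hydroxylases of the CrtR-b type add hydroxyl groups, and later enzymes make the xanthophylls from which abscisic acid is cut. Psy1 is best known from ripening fruit and PSY2 from green tissue. Loliolide, the compound tested, is itself a product of carotenoid metabolism, as the series title states.

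Leaf discs of 1 cm were taken from Micro-Tom plants 4 weeks old, Micro-Tom being a dwarf laboratory cultivar with no transgene named in the labels. They floated for 12 h under continuous light on either 300 µM loliolide or 0.1% methanol, the control. Each treatment has 3 samples, with 1 array for each of the 6 RNA samples (Agilent, 1 colour). The labels speak of triplicate harvests and name no separate plants, so each p-value reflects the spread between samples that may be technical repeats.

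Signals are given as log2 of the scanner's processed intensity minus the 75th percentile of the same array, unless called an unscaled intensity. A probe is called detected on an array where the scanner software marked its signal as well above background. All methanol arrays lay on 1 slide and all loliolide arrays on another, scanned separately, so that slide and treatment cannot be told apart, which holds for every difference given here. Loliolide replicate 3 was the dimmest array, with a 75th percentile of 817.7 where the 5 others ran from 1048 to 1117. The 10 E1A spike-in controls, RNA added in fixed amounts, differed between loliolide and methanol by 0.23 to 1.26 with a median of 0.33. Over all 37424 tested probes the median difference was 0.06, or -0.24 when arrays were scaled to these spike-ins and -0.13 with no scaling. Of the leaf markers, CAB4 and CAB6A, which encode chlorophyll-binding proteins, had probes and were detected on all 6 arrays, while the other marker genes of the 16 had no matched probe. Of the flower markers with a probe, AG1 was detected on 0 arrays and LOC543885 (TM5) on 1 methanol and 1 loliolide array. PT1, a phosphate transporter gene and the 1 root marker with a probe, was detected on all 6 arrays and differed by 0.24 (limma adjusted p = 0.524). In leaf discs, fewer cells of a type and less RNA per cell cannot be told apart.

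The comparison asked whether these genes responded to loliolide, the question that the series title poses for tomato genes in general. Of the 22 probes, 20 were detected in at least 1 whole group and so were tested. Only 1 passed, a Psy1 probe that rose, while 0.783% of all tested probes passed the same limma test at an adjusted p of 0.05, 0.77% with higher signal. None of the lower differences passed, as against 0.0134% of all tested probes. With 1 probe per gene, the brightest, Psy1 was again the 1 member gene to pass, and 1.41% of all genes and unnamed targets passed. Of the 20 probes, 18 were lower with loliolide and 2 higher, with a median log2 difference of -0.25, whereas 39.2% of all tested probes were lower. Probes of 1 gene are not independent, and by gene the split was 5 lower and 2 higher over the brightest probes of 7 genes. The 2 higher were Psy1 and PDS, the latter at 0.00. By the mean over each gene's tested probes all 7 were lower, so the split depends on the probe rule. The share over all genes is not given here. At an unadjusted p of 0.05, limma counted 7 of the 20, 6 lower and 1 higher, where all tested probes gave 20.1%, 5.4% and 14.7%. The groups did not overlap for 8 of the 20, in 7 with loliolide below and in 1 with loliolide above. Among all tested probes this held for 29.5%, 9.65% with loliolide below and 19.8% above. None of the 22 probes is among those listed in the authors' deposited table of log2 ratios.

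**Figure D1:**
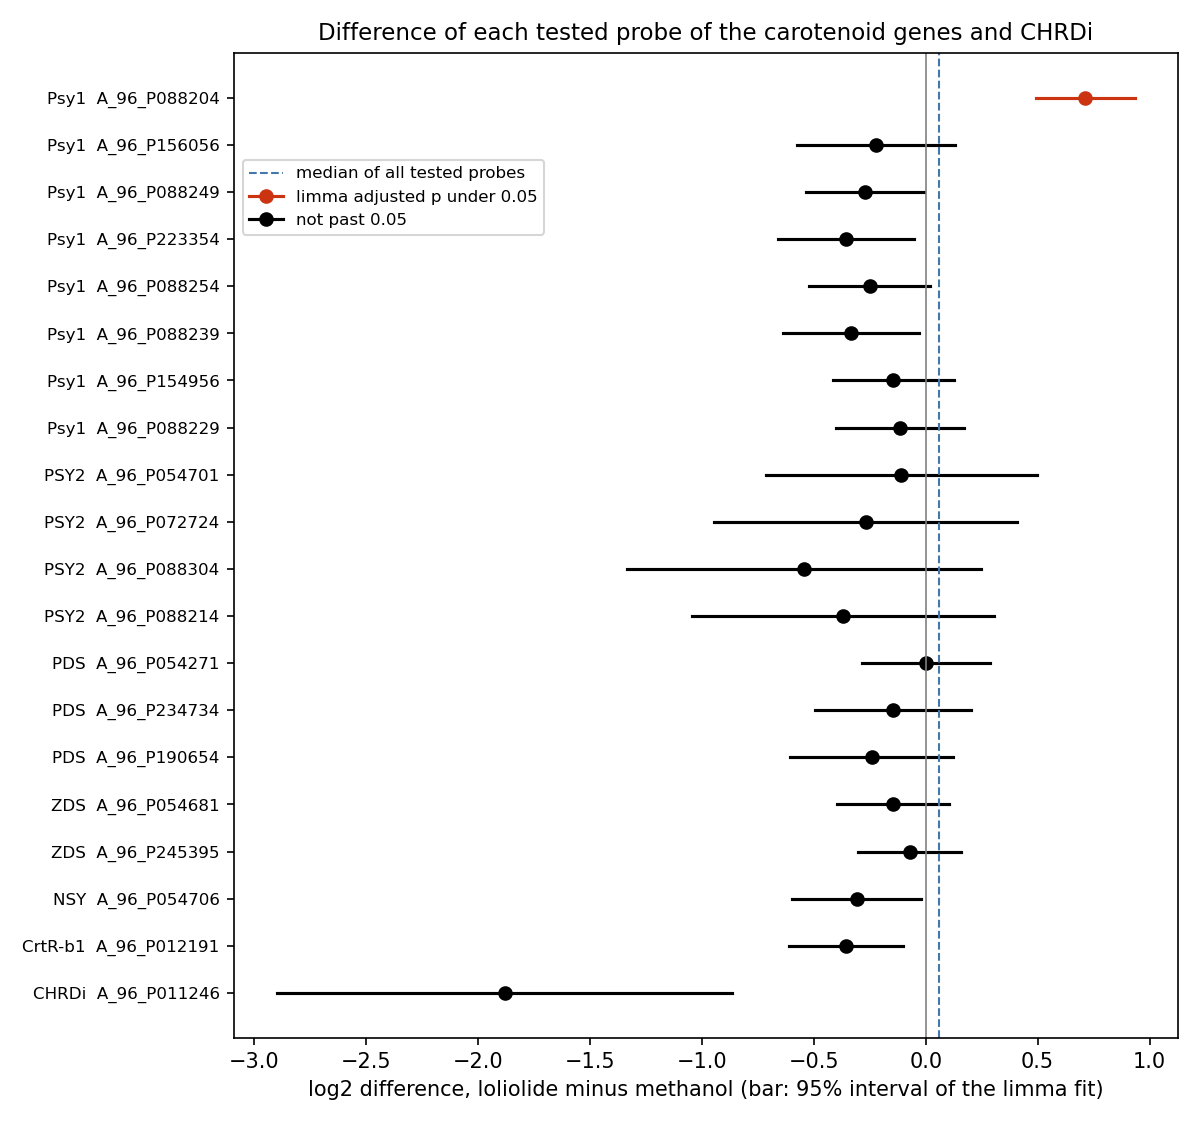
Each row is 1 of the 20 tested probes, with its log2 difference of loliolide minus methanol (point) and the 95% interval of the limma fit (bar). The Psy1 probe A_96_P088204 at 0.71 passed the adjusted threshold, and CHRDi at -1.88 has the widest interval. The dashed line marks the median of all tested probes, 0.06.

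Psy1 (gene 543988), the phytoene synthase gene that opens carotenoid synthesis, gave opposite directions depending on the probe. All 8 probes carry the same transcript accession, NM_001247883, have 1 spot each, and were detected on all 6 arrays. The brightest probe, A_96_P088204, read 0.39, 0.40 and 0.47 on the methanol arrays of replicates 1, 2 and 3, and 1.08, 1.08 and 1.24 on the loliolide arrays. Every loliolide array lay above every methanol array. The probe rose by 0.71 (SE 0.09), a ratio of 1.64 with a 95% interval of 1.41 to 1.91 (limma adjusted p = 0.0338 over all probes). Its unscaled intensity showed the same order, from 1451 to 1546 with methanol and from 1931 to 2298 with loliolide. The call was lost without each of the 6 arrays in turn (difference 0.66 to 0.74, limma adjusted p from 0.0671 to 0.133). It was also lost with the spike-in scaling (difference 0.41, limma adjusted p = 0.213), with no scaling (0.52, 0.237) and with cyclic loess (0.71, 0.0504).

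The 7 other Psy1 probes were all lower with loliolide, and none passed. A_96_P223354 had the lowest difference among them, with -0.90, -1.12 and -0.69 on the methanol arrays and -1.29, -1.21 and -1.28 on the loliolide arrays. Its groups did not overlap, and it differed by -0.35 (95% interval -0.66 to -0.05, limma adjusted p = 0.2). A_96_P088239 read -1.45, -1.52 and -1.13 with methanol and -1.74, -1.61 and -1.76 with loliolide, a difference of -0.33. A_96_P088249 read -0.83, -1.05 and -0.73 against -1.17, -1.11 and -1.15, a difference of -0.27. In both, all loliolide arrays lay below all methanol arrays. For the 4 remaining probes 1 or more loliolide arrays lay within the methanol values. A_96_P088254 read -1.13, -1.33 and -1.09 with methanol and -1.55, -1.45 and -1.30 with loliolide, a difference of -0.25. A_96_P156056 read -0.12, -0.34 and 0.17 against -0.26, -0.25 and -0.43, a difference of -0.22. The 2 dimmest probes, A_96_P154956 and A_96_P088229, differed by -0.14 and -0.11, and on both of them loliolide replicates 1 and 2 lay within the methanol range or on its edge. The limma adjusted p of the 7 probes ranged from 0.2 to 0.627. The 7 stayed lower in all settings tried except normexp background correction, where A_96_P088229 stood at 0.045, and all 7 lay below the median of all probes in each setting.

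**Figure D2:**
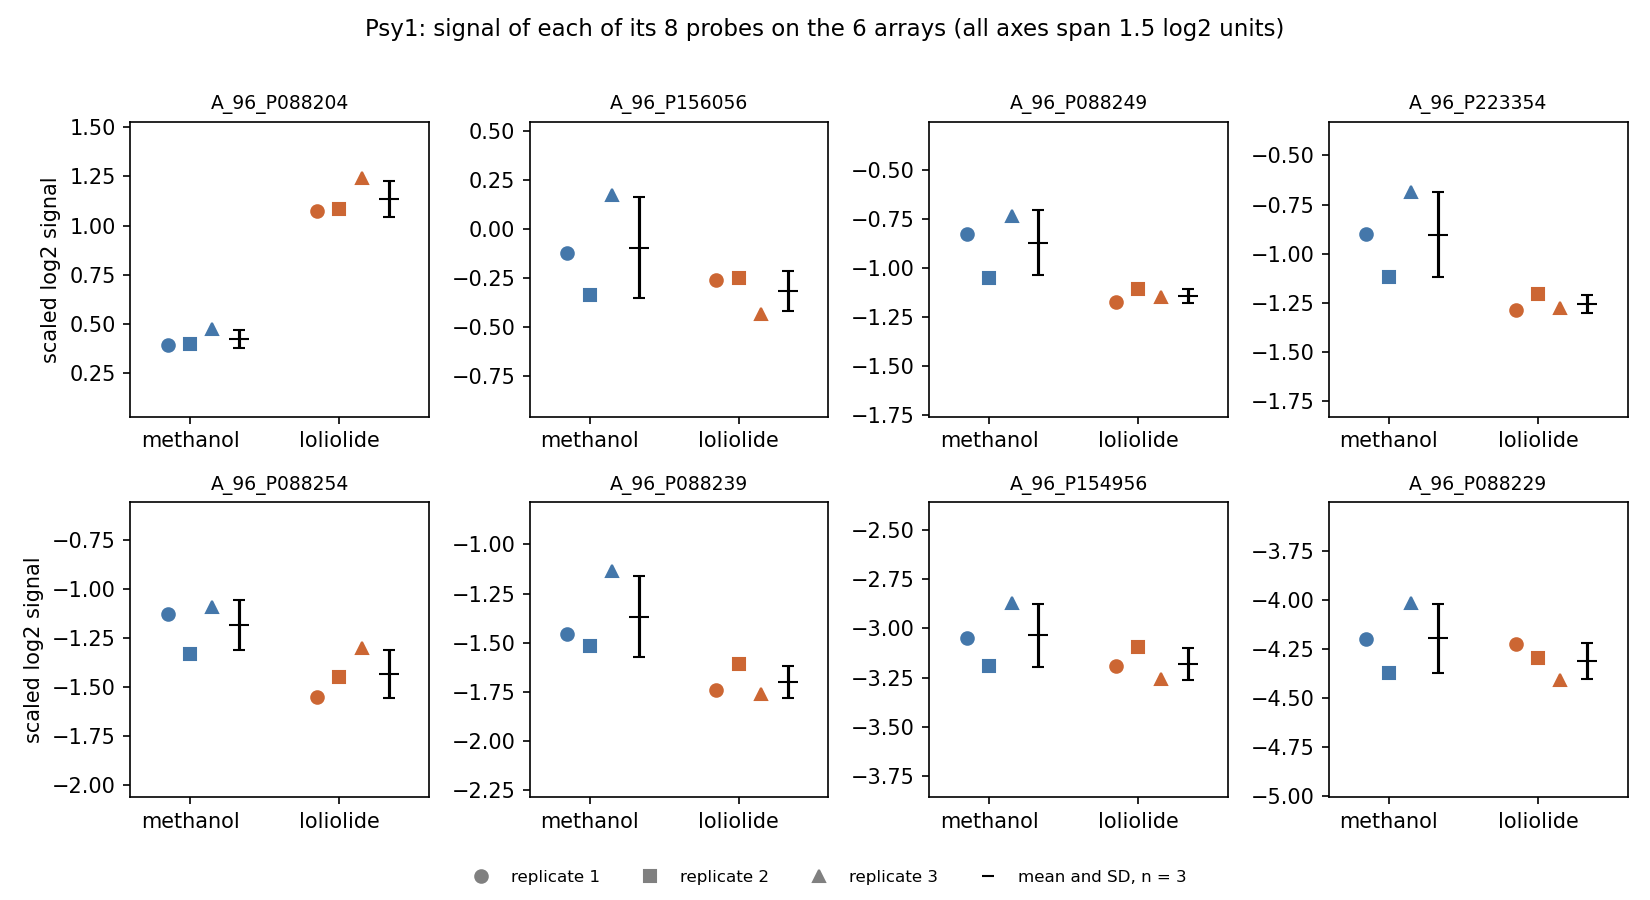
Scaled log2 signal of the 8 Psy1 probes on the 3 methanol and 3 loliolide arrays. Each panel is 1 probe, points are arrays, and the black bar is the mean and SD (n = 3). A_96_P088204 is higher on every loliolide array, and the 7 other probes have lower loliolide means.

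The probes were then compared within each array, which cancels any scaling by a constant. The brightest probe minus the mean of the 7 others stood at 2.06, 2.24 and 1.95 on the methanol arrays and at 2.99, 2.94 and 3.18 on the loliolide arrays. The groups were apart by more than their spread, 2.09 ± 0.15 (SD, n = 3) against 3.04 ± 0.12 (SD, n = 3). The difference of 0.95 had a 2-sided exact permutation p of 0.1, the smallest that 3 against 3 arrays allow. Leaving out each array in turn gave 0.88 to 1.03, and it was 0.83 with normexp, 0.97 with quantile normalisation and 0.99 with cyclic loess. This probe had been singled out with its direction known, so the test is no independent evidence. The mean of the 7 others read -1.67, -1.85 and -1.48 with methanol and -1.92, -1.86 and -1.94 with loliolide. The difference was -0.24 (exact permutation p = 0.1, again the smallest possible). These 7 are what remains once the probe that rose is set apart, so this p is no independent evidence either. The value for Psy1 therefore depends on the probe rule. With the mean over all 8 probes it was -0.12 (95% interval -0.38 to 0.14, limma adjusted p = 0.561).

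**Figure D3:**
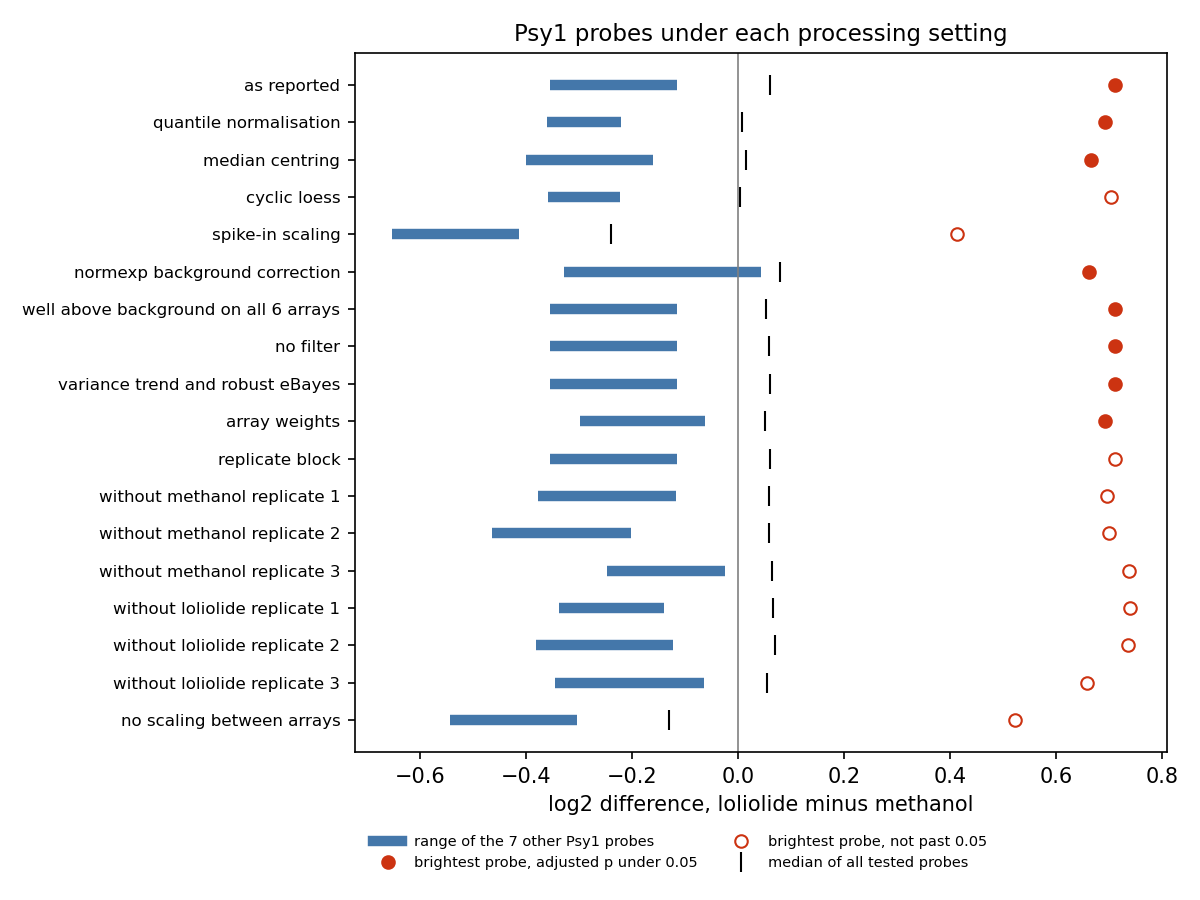
Log2 difference of Psy1 under each processing setting: the circle is the brightest probe (filled where limma adjusted p is under 0.05), the blue bar spans the 7 other probes, and the tick is the median of all tested probes. The circle lies between 0.41 and 0.74 and never meets the blue bar.

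The 8 spots lie scattered over the array, in rows 87 to 523, and none was marked as an outlier. Neighbouring probes, within 3 rows and 3 columns, had median differences between -0.01 and 0.11 around the 8 spots, and of 0.07 around the brightest. Among themselves the 7 other probes ran in parallel over the arrays. Their deviations from the group means correlated pairwise with a median Pearson r of 0.87 (21 pairs, lowest 0.27). Those of the brightest probe correlated with the 7 others at a median of 0.22, from -0.06 to 0.76. These correlations rest on 6 arrays whose values share the library and the scaling, and they are given as a description. The probe sequences are not in the files used here, so the place of each probe on the transcript was not examined.

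To see how common such a disagreement is, the same spread was measured in 313 named genes with at least 3 probes detected on every array. The range of log2 differences among the probes of a gene had a median of 0.30. Psy1, with a range of 1.07, ranked 3 of 313, behind LAPA1 (1.42) and PAD1 (1.36). A gene with more probes has more room for a wide range. Among the 43 genes with at least 6 such probes, where the median range was 0.43, Psy1 ranked 1, and it was the 1 gene with a range of at least 1. Other genes of the pathway had smaller ranges, of 0.43 for PSY2 (rank 84 of 313), 0.24 for PDS (rank 205) and 0.10 for LCY1 (rank 297).

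**Figure D4:**
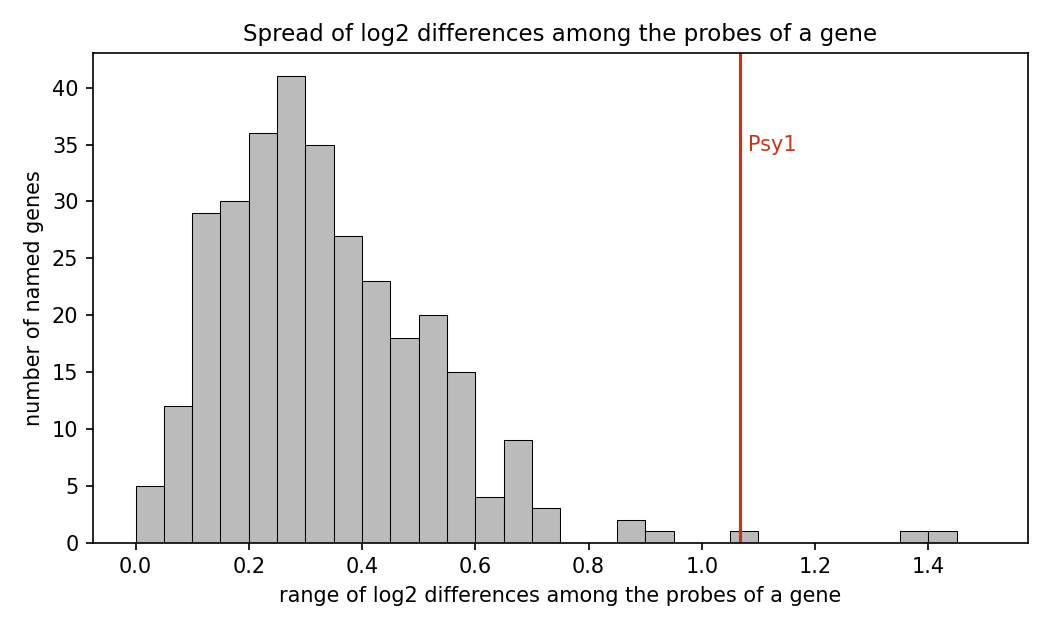
Histogram of the range of log2 differences (highest minus lowest) among the probes of each of 313 named genes with at least 3 probes detected on all 6 arrays. The red line marks Psy1 at 1.07, ranking 3 of 313.

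PSY2 (gene 543964), the phytoene synthase gene best known from leaves, differed less between treatments than between arrays of a treatment. Its brightest probe, A_96_P054701, read 0.61, 0.17 and 1.07 with methanol and 0.75, 0.60 and 0.17 with loliolide. The groups overlapped, as they did for all 4 PSY2 probes. The 4 differences were -0.11, -0.27, -0.54 and -0.37 in order of falling brightness (limma adjusted p from 0.394 to 0.843). Methanol replicate 3 was the highest methanol array and loliolide replicate 3 the lowest loliolide array for all 4 probes. Without methanol replicate 3 the differences ran from -0.31 to 0.12, and without loliolide replicate 3 from -0.22 to 0.06. The mean over the 4 probes differed by -0.32 with a 95% interval of -1.01 to 0.36.

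The desaturase genes showed small differences. PDS (gene 544073), whose product removes hydrogen from phytoene, read 1.88, 1.86 and 2.15 with methanol and 2.05, 2.01 and 1.84 with loliolide on its brightest probe, A_96_P054271. These groups overlapped, with a difference of 0.00 (95% interval -0.28 to 0.29) that changed sign between settings. Its other probes differed by -0.15 and -0.24, with overlapping groups. ZDS (gene 543629), which acts after PDS, read 2.70, 2.69 and 2.93 with methanol and 2.66, 2.67 and 2.55 with loliolide on probe A_96_P054681. All loliolide arrays lay just below the methanol arrays, at a difference of -0.14 (95% interval -0.39 to 0.11, limma adjusted p = 0.471). The other ZDS probe differed by -0.07, with overlapping groups.

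The cyclase gene NSY and the hydroxylase gene CrtR-b1 had lower signal with loliolide without passing the test, and the hydroxylase gene CrtR-b2 was too dim to test. NSY (gene 543649), known in tomato as the chromoplast lycopene cyclase Cyc-B, read -2.86, -3.02 and -3.11 with methanol and -3.48, -3.17 and -3.27 with loliolide on probe A_96_P054706. The groups did not overlap, and the difference was -0.31 (95% interval -0.60 to -0.02, limma adjusted p = 0.226). Its second probe, A_96_P242474, was not well above background on any of the 6 arrays. CrtR-b1 (gene 544133), the beta-carotene hydroxylase gene of green tissue, read -1.79, -1.49 and -1.57 with methanol and -1.96, -1.96 and -2.00 with loliolide. Its loliolide arrays were nearly equal and all lay below the methanol arrays. The difference was -0.36 (SE 0.11, 95% interval -0.61 to -0.10, limma adjusted p = 0.156), and leaving out each array in turn gave -0.44 to -0.29. CrtR-b2 (gene 544297), the hydroxylase gene best known from flowers, was detected on 2 of 3 loliolide arrays, and with methanol its signal was not well above background. Its unscaled intensity was 7.84 or less on every array, and no fold is given.

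CHRDi (gene 101248695) had the lowest difference of the set. Its name recalls CHRD, a chromoplast protein first described in cucumber, and no role in carotenoid synthesis is claimed for it here. Its 1 probe, A_96_P011246, read 3.57, 2.44 and 2.17 with methanol and 0.36, 1.47 and 0.71 with loliolide. All loliolide arrays lay below all methanol arrays, while methanol replicate 1 stood well above the other methanol arrays. In unscaled intensity this was 13174, 6079 and 5008 with methanol against 1349, 3002 and 1340.0 with loliolide. The difference was -1.88 (SE 0.43), a ratio of 0.272 with a 95% interval of 0.134 to 0.549, and it did not pass (limma adjusted p = 0.0993). Leaving out each array in turn gave -2.19 to -1.46, with limma adjusted p from 0.111 to 0.242, and the value nearest 0 was that without methanol replicate 1. With array weights it passed (-2.02, limma adjusted p = 0.0400), a setting in which 2536 probes passed in place of 293. The gene named CHRD in RefSeq had 2 probes, which differed by -0.14 and -0.22 and did not pass. ChrC, a carotenoid-associated plastid protein gene, had 2 probes that differed by -0.32 and -0.36 and did not pass either.

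**Figure D5:**
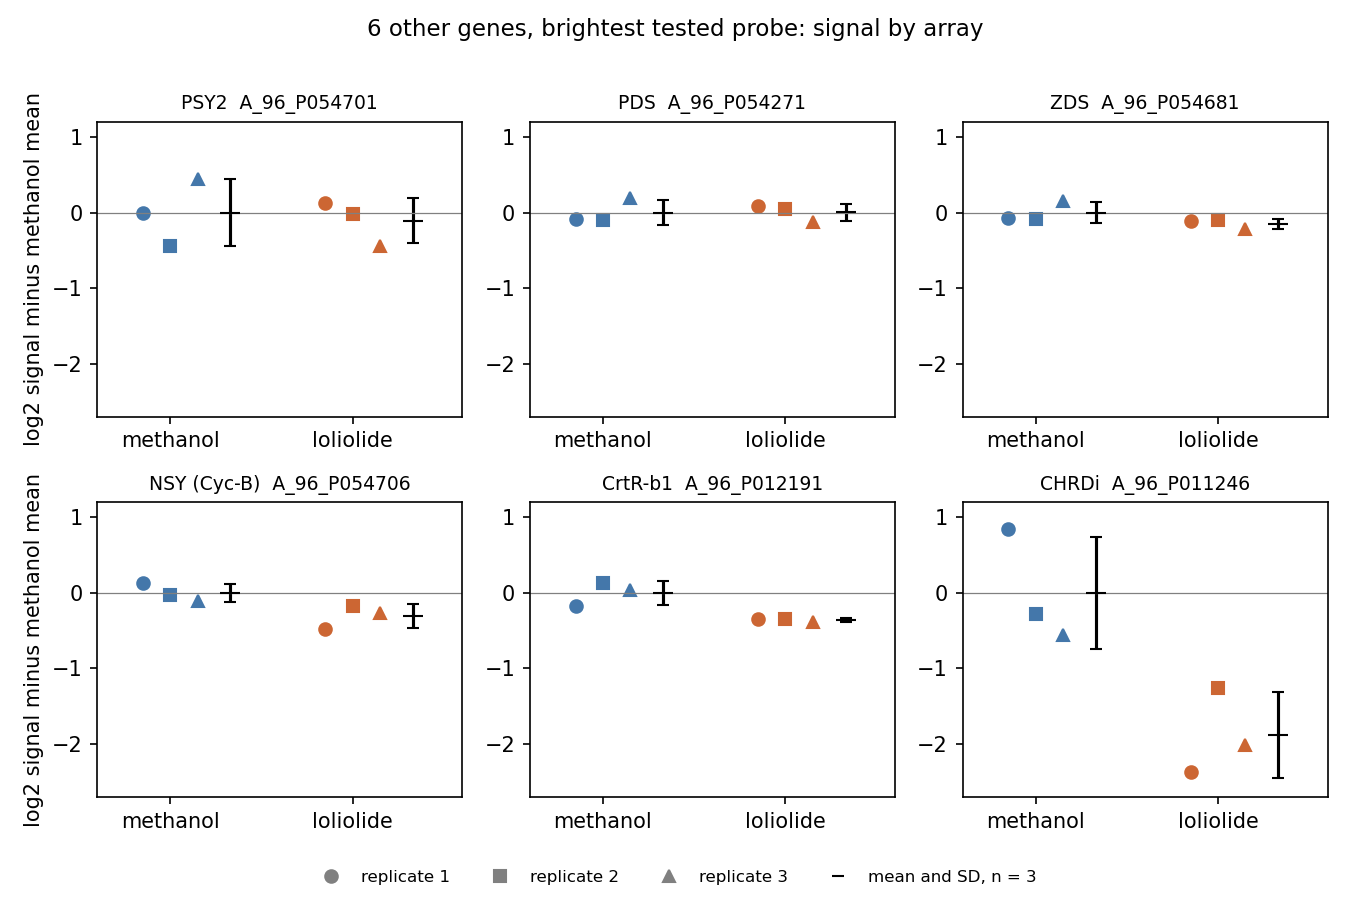
Log2 signal on each array minus the gene's own methanol mean, for the brightest tested probe of 6 genes. Points are arrays and bars are the mean and SD (n = 3). CHRDi lies lowest with loliolide, between 0.36 and 1.47 before centring, and the PSY2 groups overlap.

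Across arrays of the same treatment, the 7 other Psy1 probes, PSY2, PDS and ZDS moved in parallel. Of the 20 tested probes, 17 were highest on methanol replicate 3 among the methanol arrays. On loliolide replicate 3, 13 were lowest among the loliolide arrays. Many are repeat probes of a gene: 7 of Psy1 and 4 of PSY2 in the 17, and 4 of each in the 13. The shares over all tested probes are not given here, so whether these orders are particular to the pathway was not tested. Taken as deviations from the group means, the 7 Psy1 probes correlated with PSY2 at a Pearson r of 0.80, with PDS at 0.88 and with ZDS at 0.86, each of these genes being the mean of its tested probes. PDS and ZDS correlated at 0.99. The brightest Psy1 probe correlated with these 3 genes between -0.34 and 0.23. CrtR-b1 correlated with the 7 Psy1 probes, PSY2, PDS and ZDS between -0.22 and 0.25. CHRDi correlated with NSY at 0.92 and with PSY2, PDS and ZDS between -0.49 and -0.10. These values describe 6 arrays that share their scaling, and carry no test.

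The named genes most like each pattern were sought among 1074 genes outside the set, by Pearson r over the 6 arrays, which includes the treatment difference. For the 7 Psy1 probes these were HDR (r = 0.99), LOC543933 (0.96) and TCP24 (0.95). HDR encodes the last enzyme of the plastid pathway that supplies isoprenoid precursors. On its brightest probe, A_96_P207259, deviations within treatments correlated with those of the 7 probes at 0.99. This match depends on the HDR probe. Like the mean of the 7, A_96_P010441 and A_96_P183389 were lowest on loliolide replicate 3 among the loliolide arrays. A_96_P162451 (0.07, 0.10 and 0.39 with loliolide), A_96_P202199 and A_96_P218974 were highest there. For the brightest Psy1 probe they were ETR5 (0.99), an ethylene receptor gene, EIL2 (0.99), a transcription factor gene of ethylene signalling, and UREF (0.97). Their log2 differences were 0.15, 0.27 and 0.46, smaller than the 0.71 of the probe. Within treatments their deviations correlated with those of the probe at 0.96, 0.71 and 0.73. These genes were picked as the highest of 1074 over 6 arrays, and a link to ethylene was not tested. For CHRDi they were LOC100736434, APS1 and yfe37, each at 0.98, with log2 differences of -1.40, -0.19 and -1.16.

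Further genes around the pathway were counted by their brightest probe, and none passed the limma test over all probes. Of 7 precursor supply genes with a tested probe, 5 were lower and 2 higher, with a median of -0.04 against 0.06 for all tested probes. HDR differed by -0.21 on its brightest probe and by -0.39 to 0.08 over its 6 probes. The difference was 0.38 for DXS, the gene of the first plastid isoprenoid step, and -0.09 for DXR, the gene of the next step. Of 5 other carotenoid steps 3 were lower and 2 higher, with a median of 0.00. LCY1, the leaf-type lycopene beta-cyclase gene, had 3 probes that agreed, at -0.30, -0.33 and -0.40, each with groups that did not overlap (limma adjusted p from 0.146 to 0.177). Its brightest probe read 0.63, 0.53 and 0.74 with methanol and 0.32, 0.42 and 0.27 with loliolide. CRTL-E-1, the lycopene epsilon-cyclase gene of the branch to lutein, differed by 0.10 (limma adjusted p = 0.886), and CYP97A29, a carotenoid ring hydroxylase gene, by -0.05 (limma adjusted p = 0.852).

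Of the 3 carotenoid cleavage genes with tested probes, none was higher, and CCD1B stood at 0.00. Their median was -0.15, against 0.06 for all tested probes. NCED1, which cuts carotenoids toward abscisic acid, read -2.03, -3.02 and -2.72 with methanol and -3.37, -3.21 and -3.21 with loliolide on its brightest probe. The groups did not overlap, and the difference was -0.68 (SE 0.25, limma adjusted p = 0.204), with its other probes at -0.72 and -0.30. CCD1A and CCD1B, which cut carotenoids to volatile apocarotenoids, differed by -0.15 (limma adjusted p = 0.406) and by 0.00 (limma adjusted p = 0.986). Among 8 tested genes of regulation and carotenoid storage, 4 were lower and 4 higher, with a median of 0.01. RIN is among the 4 higher and entered the test through the loliolide group alone, so this count partly reflects the filter. AP2a, a ripening regulator, differed by 0.40 on its brightest probe (limma adjusted p = 0.197) and by 0.09 to 0.40 over its 5 probes. RIN, another, differed by 0.26 (limma adjusted p = 0.315) and was detected on 1 of 3 methanol and 3 of 3 loliolide arrays. HY5, a light signalling factor, differed by -0.20 (limma adjusted p = 0.355). Since Psy1 is a ripening gene, fruit markers are set beside it. Of 7 fruit markers with a probe, 3 were detected on all 6 arrays, 2 of them higher and 1 lower with loliolide, and none passed. E8, an ethylene-induced ripening gene, was higher on every loliolide array, by 0.38 (limma adjusted p = 0.164). LOXB, a lipoxygenase gene, differed by 0.32 with overlapping groups. Each of these values rests on 1 tested probe, of 3 for E8 and 6 for LOXB. ACO1, an ethylene synthesis gene, differed by -0.06 on its brightest probe and by -0.39 to -0.06 over its 3 probes. PG2, the fruit polygalacturonase gene, was detected on 1 of 3 methanol and 3 of 3 loliolide arrays, with means of -7.55 and -6.44 (limma adjusted p = 0.0949). PG2 and RIN entered the test through the loliolide group alone, where they are higher, so the list's median of 0.32 over 5 tested markers, beside 0.06 for all probes, partly reflects the filter. The log2 of the summed scaled signal of all 7 markers ran from 5.60 to 6.16 with methanol and from 5.49 to 6.19 with loliolide, most of it from ACO1. Without ACO1 it ran from -3.23 to -3.11 with methanol and from -2.98 to -2.73 with loliolide, so that all loliolide arrays lay above. That smaller sum is mostly LOXB, whose own groups overlapped, and E8, with methanol means of -4.09 and -5.00. The other genes in it, PG2, RIN, the RIN fusion gene and ACS4, had unscaled intensities of 13.42 or less. ACS4 and the RIN fusion gene were too dim to test, and the part of fruit-type expression in the Psy1 values was not tested.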

How the data were processed

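RNA (500 ng) was labelled with cyanine-3, per the labels' protocols. The authors deposited each array's scanner output, a processed intensity per spot. Per the file headers, Agilent Feature Extraction 11.5.1.1 subtracted the background and removed spatial trends. The submitters' processing notes name version 9.1. The deposited flags (a score of 0 or 1 per spot) mark signals well above background, outliers and saturation. Of the deposited log2 ratio table, only the probe names were used.

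Log2 of the processed signal minus each array's 75th percentile was analysed, without outlier spots. No spot was saturated. A probe entered the test where every array of 1 group or more had it well above background. limma 3.58.1 (lmFit and eBayes, R 4.3.3) gave differences and p-values. The p-values were adjusted by Benjamini and Hochberg's method over all 37424 probes, after a check on simulated data. In that check 54 of 100 simulated 2-fold changes, 86 of 100 simulated 4-fold changes and 9 unchanged probes passed. A probe that did not pass may therefore still have changed. The 3 arrays of each group limit precision. RefSeq (assembly SLM_r2.1) named 5.91% of the probes. The files name no genome build, so no coordinates are given. FLACCA was left out of the precursor list, since its synonym MCS belongs to another enzyme. All probes of the member genes are named, along with up to 3 genes of smallest p per list and those most alike, and CHRD and ChrC for their names. Alternatives changed the scaling, background correction, filter, variance model, block and arrays used. Members and lists were chosen with earlier results of these data known.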

Additional observations from a re-analysis of the deposited data

How the results depend on the processing

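As reported, 293 probes of the array passed, 1 of them a member, and 1 member gene passed by its brightest probe; both are Psy1. In this order the counts were 107, 1 and 1 with quantile normalisation, 189, 1 and 1 with median centring, 102, 0 and 1 under cyclic loess, 65, 0 and 0 scaled to the spike-ins, and 95, 1 and 1 with normexp, whose offset of 50 shrinks differences of dim probes by construction. They were 190, 1 and 1 with probes well above background on all 6 arrays, and 154, 1 and 1 for robust eBayes with a variance trend. With no filter they were 236, 1 and 1, at a limma adjusted p of 0.0458 for the brightest Psy1 probe. Array weights gave 2536, 2 and 2, where CHRDi passed too. With no scaling between arrays, a setting chosen after seeing the data, they were 73, 0 and 0. The replicate block gave 0, 0 and 0 (limma's unadjusted p was under 0.05 for 5186 probes), with a limma adjusted p of 0.226 for the brightest Psy1 probe. The labels do not say that the numbers pair samples, although the authors' deposited table numbers its ratio columns by replicate, and same-numbered arrays deviated with correlations of -0.16, -0.14 and -0.46. Under the block the difference between the brightest Psy1 probe and the others stayed 0.95 (exact p = 0.25, the smallest for 3 pairs). Leaving out each array in turn gave 0 to 105 probes, 0 to 0 member probes and 0 to 0 member genes, and 0 probes passed without loliolide replicate 1 (limma's unadjusted p was under 0.05 for 5924). When probes were averaged by gene, 0 member genes passed, and Psy1 stood at -0.12 and PDS at -0.13. The brightest PDS probe, at 0.00 as reported, was -0.0098 with quantile normalisation, -0.043 with median centring, -0.020 with cyclic loess, -0.30 with the spike-in scaling, -0.19 with no scaling, and -0.049 to 0.10 without each array in turn. The brightest PSY2 probe was 0.058 with array weights and -0.33 to 0.12 without each array in turn. The Psy1 probe A_96_P088229 was 0.045 with normexp. For these shifts the cause was not tested. A block for slide could not be fitted, since each holds 1 group. The filters, variance model and array weights do not enter the within-array Psy1 difference. Low signal limits CrtR-b2 and the second NSY probe.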
